A study of Mus musculus with 6 samples.

Results

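The natriuretic peptide system was described by RNA-seq of 6 hearts, 3 from Pontin cTG mice and 3 from wild-type (WT) littermates. It was taken as 9 genes, found by their symbols in the deposited gene count table: the peptide genes *Nppa*, *Nppb* and *Nppc*, the receptor genes *Npr1*, *Npr2* and *Npr3*, the genes *Corin* and *Furin* for the enzymes that cut the precursors, and *Mme* for the enzyme that breaks the peptides down. All 9 were among the 56748 genes of the table, and 8 of them passed the filter on low counts. Pontin cTG mice carry a transgene with flag-tagged human Pontin cDNA behind the αMHC promoter, a promoter of cardiomyocytes, on a C57Bl/6 background, and their WT littermates lack it. All 6 mice were males, were 10 weeks old when the infusion began, and had received Ang-II (angiotensin II, a peptide hormone that raises blood pressure) at 1.5 mg/kg BW/day by mini-osmotic pump for 14 days. Hearts without Ang-II were not analysed here, so the values compare genotypes under Ang-II and do not measure the response to it.

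Natriuretic peptides are hormones that lower blood volume and blood pressure. ANP (the product of *Nppa*) and BNP (the product of *Nppb*) are made mainly by cardiomyocytes. In the adult heart ANP comes mostly from the atria, and both genes are switched on in stressed or hypertrophic ventricles, which is why they are widely used as markers of hypertrophy. ANP and BNP act through the receptor encoded by *Npr1*, and CNP (the product of *Nppc*) acts through that of *Npr2*. Both receptors are guanylyl cyclases that make cGMP, and cGMP in turn activates protein kinase G. The receptor encoded by *Npr3* binds all these peptides and removes them from the circulation.

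*Nppa* (ENSMUSG00000041616) and *Nppb* (ENSMUSG00000029019) are neighbours on chromosome 4. On GRCm38, with the annotation of GENCODE M21, *Nppb* runs from 147985788 to 147987205 and *Nppa* from 148000722 to 148002079, both on the plus strand, with 13516 bases between them. *Nppa* and *Nppb* varied together across the libraries, as both also did with *Npr1*, which is described further on. The 250 bases before the transcription start of each of these neighbours in RefSeq (GRCm38.p6) are therefore shown. They were read at chr4:148000472-148000721 for *Nppa* and chr4:147985650-147985899 for *Nppb*, both plus strand and 5′ to 3′. RefSeq starts *Nppb* downstream of the GENCODE start. Capitals mark the letters GATAA, the core bound by GATA factors, GGAATG, the core bound by TEAD factors, and AAGTG, a core bound by NKX2-5, each searched on both strands. No match overlapped another.
*Nppa* promoter: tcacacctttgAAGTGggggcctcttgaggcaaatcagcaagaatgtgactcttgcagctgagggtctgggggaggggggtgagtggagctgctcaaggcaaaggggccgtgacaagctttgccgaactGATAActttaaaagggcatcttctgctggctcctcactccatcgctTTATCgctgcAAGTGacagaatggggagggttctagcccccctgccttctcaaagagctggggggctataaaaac
*Nppb* promoter: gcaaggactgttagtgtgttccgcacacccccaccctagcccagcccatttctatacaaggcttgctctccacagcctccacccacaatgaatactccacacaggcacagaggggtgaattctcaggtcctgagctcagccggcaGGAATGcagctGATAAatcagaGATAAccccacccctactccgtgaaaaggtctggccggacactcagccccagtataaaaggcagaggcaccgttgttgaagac

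The *Nppa* window held GATAA 2 times (121 to 117 and 75 to 71 bases before the start, the latter on the minus strand) and AAGTG 2 times (239 to 235 and 65 to 61 bases before the start). The *Nppb* window held GATAA 2 times (94 to 90 and 83 to 79 bases before the start) and GGAATG 1 time (105 to 100 bases before the start). GATAA was found in 22.6%, GGAATG in 12.6% and AAGTG in 40.7% of the 32851 promoter windows of the same length. The pattern searched for a CArG box, the motif bound by SRF, matched in neither window and in 1.47% of all windows. A CArG-like site that departs from that pattern would not have been found, so its absence is not shown. These matches describe letters in a window and do not show that a factor binds there.

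Total counts ran from 12436822 to 13194038 in the WT libraries and from 14584102 to 16888124 in Pontin cTG libraries. Pontin cTG replicate 2 stood apart from the rest: it scored 50.9 on the first principal component, which held 48.6% of the variance between libraries, and the other 5 libraries scored between -23.1 and 16.2. It is used below as deposited, and the fold changes of the 8 genes and of the pathway genes named are given with and without it. *Ruvbl1*, the mouse gene of Pontin, had 216 to 221 normalised counts in the WT hearts and 240 to 250 in the Pontin cTG hearts (log2 fold change 0.18, adjusted p = 0.999 in edgeR). Reads from a human cDNA may not map to the mouse gene, so its level does not check the transgene. Normalised counts are counts scaled to a common library size by edgeR's TMM factors, and they compare libraries for 1 gene, not genes with each other. Where 3 values are given for a group, they stand in the order of the replicate numbers. All 5 ventricular marker genes passed the filter, from *Hey2* at 39.1 to 71.6 normalised counts to *Myl2* at 71465 to 92482. Of 7 atrial marker genes, *Sln*, *Myl7*, *Mybphl* and *Bmp10* had fewer than 10 counts in every library, while *Nr2f2*, *Dkk3* and *Myl4* passed the filter. The labels name the tissue as heart and do not give the part of it.

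To compare genes with each other, counts were divided by gene length in kilobases and by the library total, which gives counts per kilobase for a library of fixed size (CPM per kilobase). On that scale *Nppb* was the highest of the 9 genes, with a median of 281 over the 6 libraries, followed by *Nppa* at 111. *Corin* had a median of 32.9, *Npr2* 11.7, *Furin* 10.5, *Npr1* 3.70, *Npr3* 2.04 and *Mme* 1.21. Each gene lay above the next in 6 of 6 libraries, except *Nppb* over *Nppa*, *Nppa* over *Corin* and *Npr2* over *Furin*, which held in 5 of 6. In Pontin cTG replicate 2, *Nppa* (682) was above *Nppb* (629), and in Pontin cTG replicate 3 it was at 28.5, below *Corin* at 30.5. The ranges over libraries of *Npr2* (10.3 to 16.0) and *Furin* (6.30 to 12.8) overlapped, as did those of *Npr3* (0.892 to 3.43) and *Mme* (0.573 to 1.55).

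**Figure D1:**
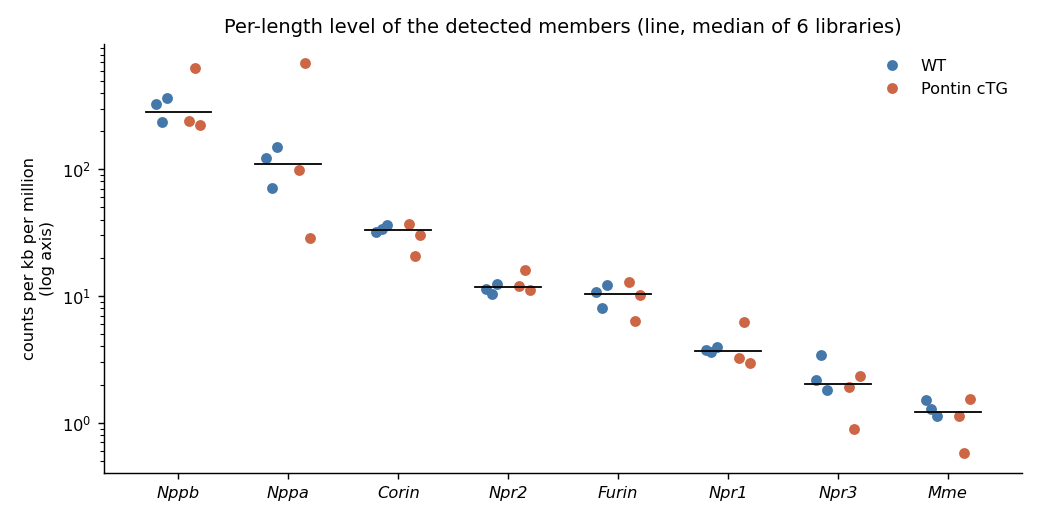
CPM per kilobase (log axis) of the 8 genes with counts, ordered by their median over 6 libraries (line), with 1 point per library, blue for WT and orange for Pontin cTG. *Nppb* has the highest median (281) and *Mme* the lowest (1.21), and *Nppa* spans the widest range, from 28.5 to 682.

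*Nppc* (ENSMUSG00000026241, chromosome 1 from 86666291 to 86670571 on GRCm38, minus strand), the gene of CNP, a peptide known mainly from blood vessels and cartilage, had 0 counts in all 6 libraries. At these depths a count of 0 allows a level of up to 0.178 to 0.241 CPM, depending on the library (3 counts of the total, counting error only). The receptor that CNP acts through was the most abundant of the 3 receptor transcripts per length.

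Between the genotypes, 0 of the 8 genes had an adjusted p under 0.05 by the quasi-likelihood test of edgeR, adjusted over 13888 genes by Benjamini-Hochberg, where 0.0% of all genes tested did. None of the 8 had an unadjusted p under 0.05, against 2.05% of all genes (285 genes). DESeq2 likewise called none of the 8. It tested 25633 genes, without the filter on low counts, so its shares have another base than those of edgeR. Of these it called 1 at an adjusted p under 0.05 (0.0039%) and 217 at an unadjusted p under 0.05 (0.847%). In none of the 8 did the groups fail to overlap, against 8.33% of all genes. 4 of the 8 had a positive and 4 a negative log2 fold change, with a median of -0.01, where the median of all genes tested was 0.00. In bulk heart tissue, fewer cells of a type and less RNA per cell cannot be told apart, and this holds for every level given here.

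*Nppa* had 1551, 858 and 1842 normalised counts in the WT hearts against 1205, 7716 and 360 in the Pontin cTG hearts. The highest and the lowest hearts were thus both Pontin cTG hearts, and the 3 WT hearts lay between them. The WT mean was 1417 ± 505 and the Pontin cTG mean 3094 ± 4025 (SD over 3 hearts). The fitted log2 fold change was 1.13 ± 0.91 (SE), with a 95% interval from -0.96 to 3.21 and an adjusted p = 0.999 in edgeR. An exact permutation test of the normalised counts gave p = 0.9, two-sided, where 3 hearts against 3 allow no p under 0.1. Leaving out Pontin cTG replicate 2 turned the log2 fold change to -0.86 (adjusted p = 0.893 in edgeR). Leaving out Pontin cTG replicate 3 instead gave 1.65 (adjusted p = 0.911 in edgeR), with an unadjusted p under 0.05 in a fit in which 1.6% of all genes were higher by that rule. The direction of *Nppa* between the genotypes was therefore set by 1 heart.

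*Nppb* had 3687, 2561 and 4077 normalised counts in the WT hearts against 2644, 6422 and 2546 in the Pontin cTG hearts. Pontin cTG replicate 2 was again the highest and replicate 3 the lowest, close to WT replicate 2. The WT mean was 3442 ± 787 and the Pontin cTG mean 3871 ± 2210 (SD over 3 hearts), and the log2 fold change of 0.17 ± 0.35 (SE) had a 95% interval from -0.63 to 0.97 (adjusted p = 0.999 in edgeR). Leaving out Pontin cTG replicate 2 gave -0.41 (adjusted p = 0.889 in edgeR), with an unadjusted p under 0.05 in a fit in which 2.85% of all genes were lower by that rule. Its groups still overlapped by a narrow margin in that setting, since WT replicate 2 (2561) lay below Pontin cTG replicate 1 (2644).

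**Figure D2:**
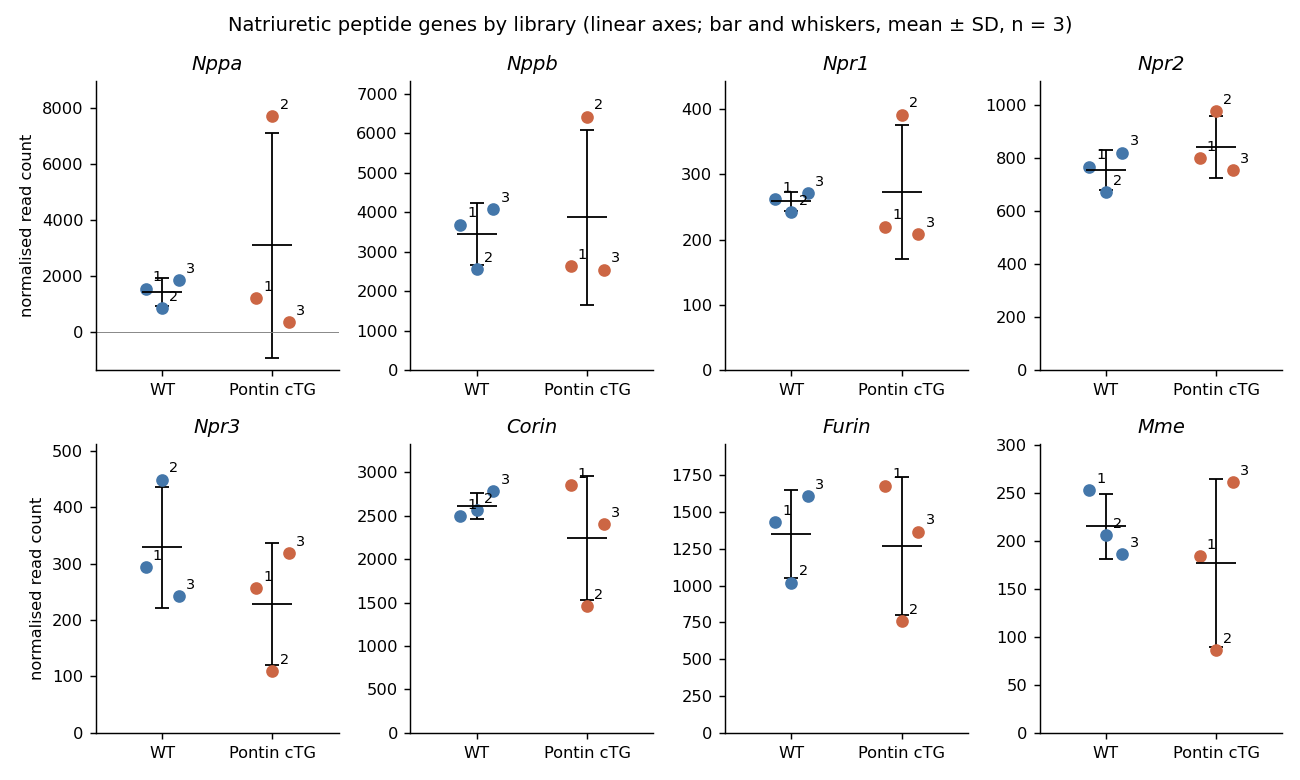
Normalised read counts (linear axes) of the 8 genes with counts, 1 point per library with its replicate number, blue for WT and orange for Pontin cTG, with the mean ± SD of each group (n = 3). Pontin cTG replicate 2 is the highest point for *Nppa*, *Nppb*, *Npr1* and *Npr2* and the lowest for *Npr3*, *Corin*, *Furin* and *Mme*.

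The ratio of *Nppa* to *Nppb*, per kilobase and within a library, is independent of the scaling between libraries. It was 0.380, 0.303 and 0.408 in the WT hearts against 0.411, 1.08 and 0.128 in the Pontin cTG hearts. The WT ratios lay close together, and Pontin cTG replicates 2 and 3 lay on either side of them. The mean log2 ratio differed by 0.09 between the groups (exact permutation test, p = 0.8, adjusted p = 0.8 over 3 ratios). Across the 6 libraries the log2 values of *Nppa* and *Nppb* had a Pearson r of 0.93, and of 0.76 over the 5 libraries without Pontin cTG replicate 2. *Npr1*, on chromosome 3, had a higher r with each, 0.95 with *Nppa* and 0.96 with *Nppb*. Without Pontin cTG replicate 2 these were 0.83 and 0.87, so varying together was not particular to the neighbouring pair. This is a description over libraries that include both genotypes, with no test.

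Neighbouring genes were read in the same libraries. *Gm13054*, an antisense gene that covers 989 of the 1358 bases of *Nppa* and whose reads cannot be told apart from those of *Nppa* without strand, had 3, 5 and 5 counts in the WT hearts against 2, 23 and 2 in the Pontin cTG hearts. Against the 9011 counts of *Nppa* in Pontin cTG replicate 2 these were few, but they do not give the number of antisense reads within the shared bases. How reads in the shared bases were assigned is not known here, which limits the per-length level of *Nppa* and its ratio to *Nppb*. Among other genes within 50 kb, *Gm13207* had 0 counts, and the log2 fold changes of *Plod1* (0.02), *2510039O18Rik* (0.06) and *Clcn6* (-0.12) were near 0 (adjusted p = 0.999 in edgeR for each).

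*Npr1* (ENSMUSG00000027931, chromosome 3 from 90450591 to 90465866, minus strand), the receptor of ANP and BNP, had 262, 242 and 271 normalised counts in the WT hearts against 220, 391 and 208 in the Pontin cTG hearts. Pontin cTG replicates 1 and 3 lay below all WT hearts, and replicate 2 above them. The log2 fold change was 0.08 ± 0.24 (SE) with all libraries (adjusted p = 0.999 in edgeR). Leaving out Pontin cTG replicate 2 gave -0.27 (adjusted p = 0.889 in edgeR). The WT hearts spread little (SD 14.5 around a mean of 258) and the Pontin cTG hearts more (SD 103 around 273).

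*Npr2* (ENSMUSG00000028469, chromosome 4 from 43631935 to 43651244, plus strand), the receptor of CNP, had 769, 673 and 822 normalised counts in the WT hearts against 800, 977 and 755 in the Pontin cTG hearts. Of the 8 genes it deviated least in Pontin cTG replicate 2, which was 1.27-fold above the median of the other 5 libraries. The log2 fold change was 0.16 ± 0.15 (SE), with an adjusted p = 0.999 in edgeR and a 95% interval from -0.17 to 0.49, and 0.04 without that library. *Gm12473*, an antisense gene inside the bounds of *Npr2*, had 216 counts over the 6 libraries.

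*Npr3* (ENSMUSG00000022206, chromosome 15 from 11839896 to 11907287, minus strand), the clearance receptor, had 294, 449 and 243 normalised counts in the WT hearts against 257, 110 and 319 in the Pontin cTG hearts. It ran opposite to *Npr2* and to both peptide genes in Pontin cTG replicate 2, where it was lowest. The log2 fold change was -0.52 ± 0.36 (SE) and its 95% interval ran from -1.35 to 0.30 (adjusted p = 0.999 in edgeR). It kept its sign without Pontin cTG replicate 2, at -0.19 (adjusted p = 0.935 in edgeR).

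Of the 2 ratios between receptors, that of *Npr3* to *Npr1* set Pontin cTG replicate 2 apart, and that of *Npr2* to *Npr1* did not. *Npr3* to *Npr1*, the clearance receptor over the signalling receptor of ANP and BNP, was 0.571, 0.943 and 0.457 per kilobase in the WT hearts against 0.595, 0.143 and 0.781 in the Pontin cTG hearts. *Npr2* to *Npr1* was 3.01, 2.85 and 3.11 in the WT hearts against 3.73, 2.56 and 3.72 in the Pontin cTG hearts. For *Npr2* to *Npr1*, Pontin cTG replicates 1 and 3 lay above all WT hearts and replicate 2 below them, while for *Npr3* to *Npr1* the hearts of the groups were interleaved outside that library. The mean log2 ratios differed by -0.63 and 0.14 between the groups (exact permutation tests, p = 0.7 and p = 0.4, adjusted p = 0.8 for both).

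**Figure D3:**
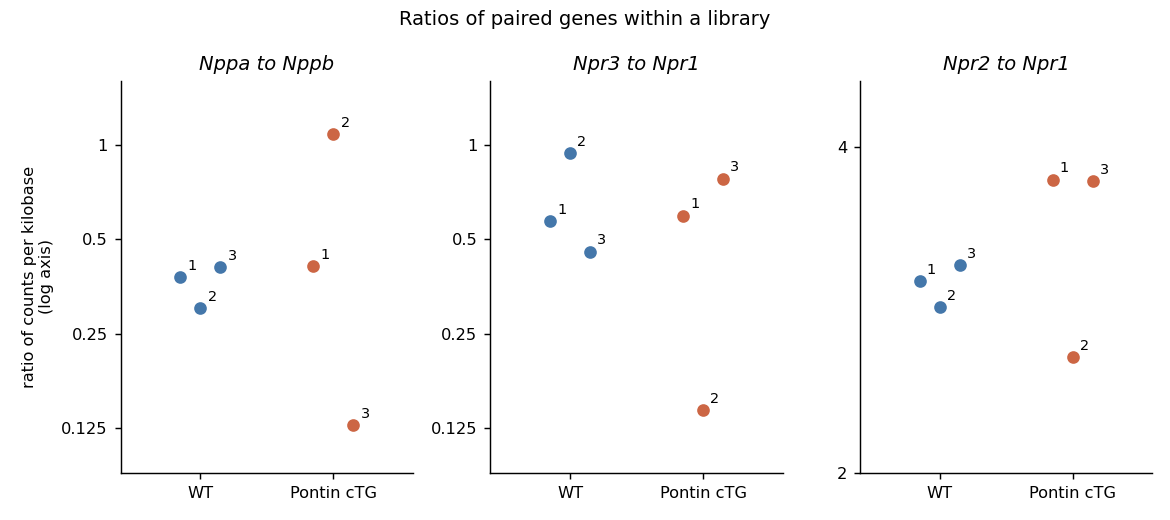
Ratios of counts per kilobase (log axes) within each library for *Nppa* to *Nppb*, *Npr3* to *Npr1* and *Npr2* to *Npr1*, 1 point per library with its replicate number, blue for WT and orange for Pontin cTG. Pontin cTG replicate 2 has the highest *Nppa* to *Nppb* ratio (1.08) and the lowest of both receptor ratios (0.143 and 2.56).

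*Corin* (ENSMUSG00000005220, chromosome 5 from 72300025 to 72504473, minus strand), the cardiomyocyte protease that cuts the ANP precursor at the cell surface, had 2494, 2563 and 2780 normalised counts in the WT hearts against 2853, 1462 and 2406 in the Pontin cTG hearts. Outside Pontin cTG replicate 2 it was even across hearts, so that the log2 fold change of -0.22 ± 0.23 (SE, with an adjusted p = 0.999 in edgeR) became 0.01 without that library, with a 95% interval from -0.24 to 0.26. In the heart with the most *Nppa*, *Corin* was thus the lowest of the 6, as were 30.7% of all genes tested. In the heart with the least *Nppa*, Pontin cTG replicate 3, *Corin* was also below all WT hearts. The Pearson r of *Nppa* and *Corin* was -0.69 over the 6 libraries and 0.65 without Pontin cTG replicate 2.

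*Furin* (ENSMUSG00000030530, chromosome 7 from 80388585 to 80405436, minus strand), a convertase of the secretory pathway that cuts the BNP and CNP precursors, had 1430, 1020 and 1605 normalised counts in the WT hearts against 1678, 757 and 1366 in the Pontin cTG hearts. The 2 lowest values were those of replicate 2 in either group. Its log2 fold change was -0.09 ± 0.28 (SE) with all libraries and 0.17 ± 0.18 without Pontin cTG replicate 2.

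*Mme* (ENSMUSG00000027820, chromosome 3 from 63241537 to 63386030, plus strand), neprilysin, the membrane protease that degrades natriuretic peptides and is the target of sacubitril, had 253, 206 and 187 normalised counts in the WT hearts against 185, 86.5 and 262 in the Pontin cTG hearts. Both extremes were Pontin cTG hearts, as for *Nppa*, but in the opposite order. Its log2 fold change was -0.28 ± 0.34 (SE) with all libraries and 0.05 ± 0.19 without Pontin cTG replicate 2, with adjusted p of 0.999 and 0.981 in edgeR.

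**Figure D4:**
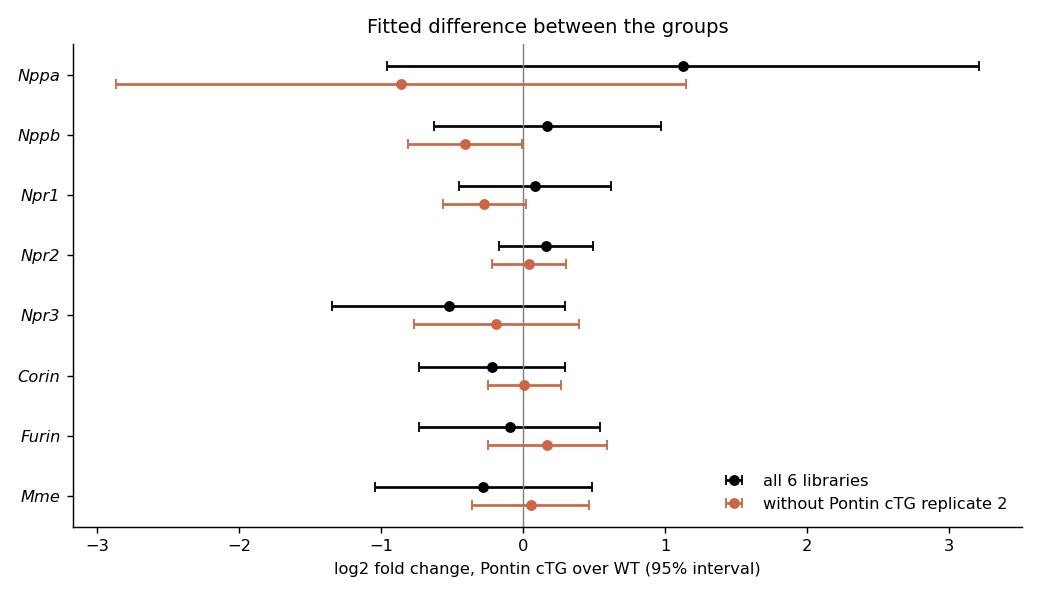
Log2 fold change of Pontin cTG over WT with its 95% interval from edgeR for the 8 genes tested, with all 6 libraries (black) and without Pontin cTG replicate 2 (orange). With all libraries every interval includes 0, and *Nppa*, *Nppb*, *Npr1*, *Corin*, *Furin* and *Mme* change sign without that library.

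Read library by library, Pontin cTG replicate 2 was the highest or the lowest of the 6 for 8 of the 8 genes, and it was so for 60.9% of all 13888 genes tested. For each of the other libraries that share was between 21.2% and 36.0%. The 4 highest were *Nppa*, *Nppb*, *Npr1* and *Npr2*, that is, peptides and guanylyl cyclase receptors. The 4 lowest were *Npr3*, *Corin*, *Furin* and *Mme*, that is, the genes of clearance, cutting and breakdown. This grouping is read from that 1 library and did not hold as a whole over the other 5. There *Furin* had a Pearson r of 0.98 with *Npr2* and -0.99 with *Npr3*, and *Corin* -0.94 with *Mme* and 0.65 with *Nppa*. *Nppa* with *Nppb* (0.76) and *Corin* with *Furin* (0.56) stayed positive. In Pontin cTG replicate 2, *Nppa* was 6.40-fold above the median of the other 5 libraries, the seventh highest of all genes tested. *Nppb* was 2.43-fold and *Npr1* 1.61-fold above it. *Npr3* was at 0.377, *Mme* at 0.425, *Furin* at 0.530 and *Corin* at 0.571 of that median. Pontin cTG replicate 3 was the lowest for *Nppa*, *Nppb* and *Npr1* and the highest for *Mme*, with *Nppa* at 0.233 of the median of the other 5.

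Several measures moved with this pattern. Across genes, the deviation of a library correlated with gene length by a Spearman rho of -0.20 in both Pontin cTG replicates 2 and 3 and of 0.046 to 0.16 in the other libraries, and the 4 genes that were highest in Pontin cTG replicate 2 have shorter models (781 to 4783 bases) than the 4 that were lowest (5400 to 11542 bases). Pontin cTG replicate 3 had the same correlation and the lowest *Nppa* and *Nppb*, the shortest of the models with counts. The part of length in the result was not tested. The atrial marker list summed to 181 to 291 normalised counts in the WT hearts and 198 to 431 in the Pontin cTG hearts, highest in Pontin cTG replicate 2, where *Dkk3* gave 205 of them. *Nr2f2* (182) and *Myl4* (43.7, against 8.81 to 28.3 in the other libraries) were also highest there, while *Sln*, *Myl7*, *Mybphl* and *Bmp10* had 0 counts in that library. The ventricular marker list was also highest in Pontin cTG replicate 2, at 168394. It summed to 126788 to 144416 in the WT hearts and 154317 to 168394 in the Pontin cTG hearts. *Myl2* and *Myl3* were highest in that library, while *Lrrc10*, *Irx4* and *Hey2* were not. The part of atrial or ventricular tissue in the result was not tested. The sums of the cardiomyocyte, smooth muscle and pericyte, macrophage and neutrophil lists were not highest in Pontin cTG replicate 2. The 7 endothelial markers, all with counts, summed to 13804 to 15389 in the WT hearts and 12034 to 16703 in the Pontin cTG hearts. The sums were highest in Pontin cTG replicate 2 and lowest in replicate 3, as for *Nppa*, and so were *Cdh5*, *Pecam1* and *Tie1* singly. *Tek* (1183) and *Vwf* (2057) were instead highest in WT replicate 2, and *Kdr*, *Emcn* and *Tek* were lowest in Pontin cTG replicate 1. The 7 fibroblast markers, all with counts, summed to 11849 to 18772 in the WT hearts and 11493 to 20724 in the Pontin cTG hearts. The sums had the same 2 hearts at the ends, as did *Postn* (4856 and 620), *Col1a1* and *Col1a2* singly. *Dcn* (8017), *Lum* (1638) and *Pdgfra* (901) were instead highest in WT replicate 2. *Tcf21* was highest in Pontin cTG replicate 2 but lowest in WT replicate 3. The part of endothelial cells and fibroblasts in the result was not tested.

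**Figure D5:**
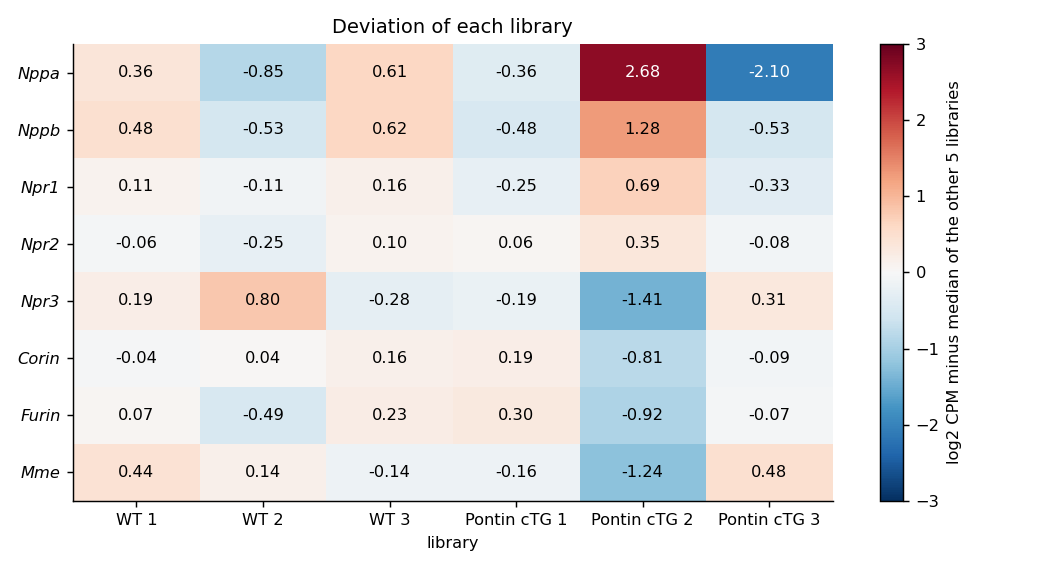
Log2 CPM of each library minus the median of the other 5 libraries, for the 8 genes tested (rows) and 6 libraries (columns), red above and blue below. Pontin cTG replicate 2 runs from 2.68 for *Nppa* to -1.41 for *Npr3*, and *Nppa* is at -2.10 in Pontin cTG replicate 3.

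The genes whose pattern was most like that of *Nppa* over the 6 libraries, among 12404 protein-coding genes with a mean of at least 10 counts, were *Tepsin* (Pearson r 0.995), *Rasip1* (0.994), *Pear1* (0.991), *Cdh5* (0.990) and *Myo1e* (0.989). *Cdh5*, the cadherin of endothelial junctions, had 2681 normalised counts in Pontin cTG replicate 3, 3066 to 3500 in the WT hearts and 4072 in Pontin cTG replicate 2, a far smaller range than that of *Nppa*. Those most like *Nppb* were *Mapk7* (0.993), *Psmb10* (0.993), *Rtl8b* (0.992), *Ccdc88c* (0.991) and *Tmc8* (0.985). With 6 libraries and this many genes, values this high are a ranking and carry no test.

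Downstream of the receptors, 13 genes that make or break down cGMP were tested, of which 4 had a positive and 9 a negative log2 fold change, with a median of -0.14 (-0.13 if Pontin cTG replicate 2 is left out). At an unadjusted p under 0.05, 0 were higher and 2 lower, where 1.02% of all genes tested were higher and 1.03% lower, and none passed adjustment. They were *Pde5a*, the cGMP-specific phosphodiesterase inhibited by sildenafil, and *Gucy1a2*, a subunit of the soluble guanylyl cyclase that responds to nitric oxide. *Pde5a* had 91.4, 122 and 106 normalised counts in the WT hearts against 78.1, 67.6 and 77.1 in the Pontin cTG hearts, with no overlap between the groups (log2 fold change -0.52, adjusted p = 0.999 in edgeR). Without Pontin cTG replicate 2 its log2 fold change was -0.46, and its unadjusted p stayed under 0.05, where 2.85% of all genes were lower by that rule. *Gucy1a2* had 26.9 to 40.2 normalised counts in the WT hearts and 11.1 to 24.4 in the Pontin cTG hearts (log2 fold change -0.87, adjusted p = 0.999 in edgeR), and without Pontin cTG replicate 2 its log2 fold change was -0.61 and its unadjusted p no longer under 0.05. *Pde11a* had the lowest log2 fold change of the list, -1.14 (6.85 to 33.0 normalised counts), and *Pde1b* the highest, 0.30. With Pontin cTG replicate 2 left out, they were at -0.95 and -0.13, so that *Pde1b* turned, and 3 genes of the list had a positive and 10 a negative value.

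Of 8 tested genes for cGMP effectors and efflux (10 were in the table), 3 had a positive and 5 a negative log2 fold change, with a median of -0.08 (-0.23 if Pontin cTG replicate 2 is left out). *Prkg1*, protein kinase G, had 315, 337 and 266 normalised counts in the WT hearts against 242, 179 and 223 in the Pontin cTG hearts. Every Pontin cTG heart lay below every WT heart (log2 fold change -0.51 ± 0.16 SE, adjusted p = 0.999 in edgeR), and without replicate 2 the value was -0.40, with an unadjusted p still under 0.05. It was the lowest of the list and the only one of the 8 with an unadjusted p under 0.05, where 1.03% of all genes tested were lower by that rule and 3.63% lay lower without overlap. The highest was *Abcc5*, an exporter of cyclic nucleotides, at 0.33, with 1274 normalised counts in Pontin cTG replicate 2 and 276 to 739 in the other hearts, and it turned to -0.70 without that library. In that setting 2 genes had a positive and 6 a negative value, and at an unadjusted p under 0.05 there were *Prkg1* and *Rgs2*, a regulator of G protein signalling that protein kinase G acts on, at 0.55 (adjusted p = 0.889 in edgeR for each), where 2.05% of all genes were higher and 2.85% lower. *Rgs2* had 305, 381 and 340 normalised counts in the WT hearts against 577, 263 and 429 in the Pontin cTG hearts, with a log2 fold change of 0.30 over all libraries. *Prkg2*, the other protein kinase G gene, had 3.30 to 3.37 normalised counts in the WT hearts and 3.47 to 8.79 in the Pontin cTG hearts and was too low to be tested, as was *Trpc6*.

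Of 7 tested genes for other proteases and clearance enzymes of peptides, 1 had a positive and 6 a negative log2 fold change, the 6 between -0.18 (*Ide*, the insulin-degrading enzyme, which also cuts ANP) and -0.04 (*Dpp4*), and none had an unadjusted p under 0.05. The positive one was *Pcsk1*, a prohormone convertase, at 0.98, with values from 2.20 to 19.5 normalised counts. When Pontin cTG replicate 2 was left out, the split became 3 positive and 4 negative, with *Ide* at -0.0069, *Dpp4* at 0.11 and *Pcsk1* at 0.90, and the median went from -0.06 to -0.0069. *Mmel1* and *Ostn* were too low to be tested.

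Among 15 tested transcription factors known to regulate *Nppa* and *Nppb*, 4 had a positive and 11 a negative log2 fold change, with a median of -0.15 (-0.03 if Pontin cTG replicate 2 is left out). None had an unadjusted p under 0.05. In 3 of the 15 every Pontin cTG heart lay below every WT heart, where 3.63% of all genes tested did so. They were *Tbx20* and *Mef2c*, cardiac activators and regulators of heart development, and *Rest*, a repressor that keeps *Nppa* and *Nppb* low in the adult ventricle. *Rest* had 248, 238 and 240 normalised counts in the WT hearts against 232, 182 and 191 in the Pontin cTG hearts (log2 fold change -0.27, adjusted p = 0.999 in edgeR). *Tbx20* (log2 fold change -0.34) and *Mef2c* (-0.28) had their lowest value in Pontin cTG replicate 2, at 1128 and 867 normalised counts. *Myocd*, the cofactor of SRF, had the lowest log2 fold change (-0.44) and *Tbx3*, a repressor in the conduction system, the highest (0.30). Once Pontin cTG replicate 2 was left out, 7 had a positive and 8 a negative value, with *Myocd* at -0.12, *Tbx20* at -0.20, *Mef2c* at -0.19, *Rest* at -0.20 and *Tbx3* at 0.21.

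Of 8 other genes associated with hypertrophy, 3 had a positive and 5 a negative log2 fold change, with a median of -0.01 and no unadjusted p under 0.05. *Myh7*, the fetal myosin heavy chain of the mouse ventricle, had 7476, 11962 and 3039 normalised counts in the WT hearts against 3310, 20807 and 3080 in the Pontin cTG hearts. It was highest in Pontin cTG replicate 2, as *Nppa* was, but WT replicate 2 came next for *Myh7* whereas it was the lowest WT heart for *Nppa* and *Nppb*. Its log2 fold change was 0.28 with all libraries and -1.23 without that library. The lowest of the list was *Fhl1*, a stretch-responsive LIM protein, at -0.31 (-0.28 without that library). In the other 5 libraries, 1 gene had a positive and 7 a negative value, with a median of -0.10. *Ankrd1*, a stretch-responsive repeat protein of cardiomyocytes, was then at -0.51 with an unadjusted p under 0.05 (adjusted p = 0.889 in edgeR), against -0.26 with all libraries. In that fit 2.85% of all genes were lower by that rule. With all libraries its groups overlapped. It had 14433, 17162 and 16208 normalised counts in the WT hearts against 11554, 17519 and 10894 in the Pontin cTG hearts.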

How the data were processed

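RNA of heart tissue was extracted with Trizol, with 1 library a heart. The values are the deposited counts of reads per gene, whole numbers with no normalisation. For how the authors made these counts, the sources used here differ: the methods of the study name Trimmomatic, STAR, mm10 and Gencode M25, and the submitters' processing notes name fastp, HISAT2, featureCounts and GRCm39. The table's own coordinates match GENCODE M21 for 1472 of 52073 shared genes, so positions are given from GENCODE M21 on GRCm38 instead. The library kit named in the methods does not mark strand, so overlapping antisense genes cannot be told apart. The methods also state that an outlier was left out after principal component analysis, without naming it. All 6 libraries were kept here, and 0 columns of sample values were left unmatched.

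Low counts were removed with filterByExpr (minimum count 10), library sizes were scaled by TMM, and the groups were then compared in edgeR 4.0.16 (R 4.3.3) by its quasi-likelihood test, robust, with no term besides genotype. The p-values were adjusted over 13888 genes (Benjamini-Hochberg). Standard errors are the log2 fold change divided by the square root of the F statistic. Ratios and single values were compared by two-sided exact permutation tests. The tests across genes were tried on simulated data beforehand. Alternatives were DESeq2 1.42.0, its size factors in edgeR, library size alone, no filter, a minimum of 10 counts in all libraries, only protein-coding genes, no mitochondrial genes, a block for the replicate number, limma-voom (limma 3.58.1) with sample quality weights and each library left out in turn. The p-values measure the spread between 3 hearts a group.

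The 9 members and the gene lists were chosen with earlier results of these data known. Named are the members, the highest and lowest gene of each list, list genes with an unadjusted p under 0.05 or groups that do not overlap, the 5 genes most like *Nppa* and *Nppb*, and the genes within 50 kb of them. Of the genes this rule covers, 1 is not reported here. *Dpp4*, *Trpc6*, *Mmel1*, *Ostn*, *Rgs2* and *Ankrd1* were named in addition, with their values known. Promoter windows from RefSeq were found for all 9 members.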

Additional observations from a re-analysis of the deposited data

How the results depend on the processing

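Under the 15 alternatives the adjusted p of the 8 genes lay between 0.844 and 0.9998, so none was called. *Npr2* and *Npr3* kept their direction in all 15, and the other 6 genes turned in 1 to 3 of them. With limma-voom and sample quality weights the log2 fold change of *Nppa* was -0.72, that of *Nppb* -0.39, *Npr1* -0.22, *Corin* 0.00094 and *Furin* 0.067, and the median of the 8 was -0.19 and that of the cGMP effectors -0.19. That method gave Pontin cTG replicate 2 a weight of 0.176, against at least 0.690 for each of the others. Leaving out 1 library at a time, the log2 fold change of *Nppa* ran from -0.86 to 1.65, *Nppb* from -0.41 to 0.40, *Npr1* from -0.27 to 0.24, *Corin* from -0.43 to 0.0094, *Furin* from -0.34 to 0.17 and *Mme* from -0.67 to 0.053. The lowest values of *Nppa*, *Nppb* and *Npr1* and the highest of *Corin*, *Furin* and *Mme* were those without Pontin cTG replicate 2. *Nppb* was also at -0.01 without WT replicate 2 and *Furin* at 0.06 without WT replicate 3. The difference of the log2 ratio of *Nppa* to *Nppb* ran from -0.65 to 0.89 and that of *Npr3* to *Npr1* from -1.10 to 0.12, and that of *Npr2* to *Npr1* kept its sign. The medians ran from -0.29 to -0.13 for cGMP synthesis and breakdown, from -0.23 to 0.0080 for the effectors, from -0.079 to -0.0069 for other processing and from -0.12 to 0.09 for the 8 genes. Over the whole table, the number of genes past an adjusted p of 0.05 was 0 in edgeR, 1 with DESeq2, 3 without a filter, 3 with limma-voom and 0 to 3 with 1 library left out. The cause of these changes was not tested. Same-numbered libraries deviated together by r = 0.077, 0.43 and 0.19, not every library correlated best with its own number (WT replicate 1 did so with Pontin cTG replicate 3, 0.248), and no source names a shared litter or day. With the replicate number as a block, 0 genes passed an adjusted p of 0.05 and 499 an unadjusted p of 0.05, against 285 without it. The block gave a log2 fold change of 0.03 for *Nppa*, 0.04 for *Nppb* and -0.57 for *Npr3*, and changed no call among the members. Among the members, depth limits *Nppc*, at 0 counts.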

Other observations

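Pontin cTG replicate 2 was the heart with the highest *Nppa*, *Nppb* and *Myh7*, and genes of the extracellular matrix were also among its highest. The genes in this paragraph were picked from their values, and no test was made. *Fmod*, a small proteoglycan that binds collagen, had 253 normalised counts there and 7.71 to 49.4 in the other 5 hearts. *Comp*, a matrix protein of the thrombospondin family, had 391 there and 20.8 to 125 in the others. *Thbs4* of the same family had 695 there and 66.7 to 199 in the others. *Postn*, made by activated fibroblasts, had 4856 there and 620 to 2432 in the others. *Gdf15*, a secreted stress-response cytokine, had 158 there and 8.66 to 46.0 in the others. In all 5 of these genes WT replicate 2 came next, whereas for *Nppa* it was the second lowest heart.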
